A study of Mus musculus with 5 samples.

Results

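The genes of glycolysis and sterol synthesis described here are 29 of the 31253 genes counted in mouse innate lymphoid cells (ILCs). They were taken by name: 17 glycolysis genes, among them the transporters Slc2a1, Slc2a3 and Slc16a3 and the regulator Hif1a, and 12 genes of sterol and fatty acid synthesis. All 29 had at least 1 count in the kept cells of each of the 4 libraries used. By its title, the study was about movement of intestinal ILC3s to the kidney, renal fibrosis and PD-1, the inhibitory receptor encoded by Pdcd1. It sorted ILCs from kidney or small intestine and sequenced single cells on the BD Rhapsody platform, with 1 library per group.

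The libraries used were a Pdcd1 knockout kidney (strain B6.Cg-Pdcd1tm1.1Shr/J) taken 3 days after unilateral ureteral obstruction (UUO, ligation of 1 ureter), a wild-type kidney taken 14 days after UUO, a wild-type intestine taken 3 days after UUO, and a wild-type intestine after sham surgery. All came from male mice of 8 to 10 weeks, and the sources used here do not state how many mice went into a library. Another sample, wild-type kidney 3 days after UUO, had a list of cell barcodes only and was not analysed here. Genotype and day therefore differ together between the kidney libraries and cannot be told apart. The protocol text names digestion of pulmonary artery, which does not match the labelled organs.

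With 1 library per group no test between groups was possible. Levels are unique molecular identifiers (UMIs, each standing for 1 counted transcript) of a gene scaled to the total of a cell class, as CPM, and every 95% interval covers counting error only. A gene was taken as different between groups when the levels were at least 1.5-fold apart, the interval of the log2 ratio was clear of 0, and both sides together held at least 100 UMIs. Genes short of that count were not compared by this rule. The platform reads the 3′ end of transcripts, so levels were compared between cells and not between genes.

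Cells were classed by counts of marker genes, none of which belongs to the 29. In the knockout-labelled kidney there were 524 ILC2, 801 ILC1, 188 NK and 4070 T cells, and in the wild-type kidney 463 ILC2, 550 ILC1, 221 NK and 2983 T cells. These are the kidney classes of at least 100 cells, and "the 4 kidney classes" below means these; classes with fewer cells are in none of the ranges given. T cells made up 58.5% and 57.2% of the kept cells of the kidney libraries, although both were labelled as ILCs. The intestinal libraries held 3510 ILC3 after UUO and 2763 ILC3 after sham surgery. The kept cells numbered 6960, 5212, 4946 and 3501 in the order of libraries above, with median depths of 1824 to 2177 UMIs per cell. Gata3 stood at 1391 and 1772 CPM in kidney ILC2 and Eomes at 964 and 955 CPM in kidney NK cells. Il22 stood at 5121 and 5511 CPM in intestinal ILC3. These genes were among the markers used to class the cells, so their levels do not check the classes. Pdcd1 does not check the genotype here. It was counted at 192 CPM in ILC1 of the knockout-labelled kidney and at 23.4 CPM in ILC1 of the wild-type kidney, and a 3′ tag can lie outside the deleted part.

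Glycolysis turns glucose into pyruvate, and lymphocytes that are activated often send that pyruvate on to lactate. Its entry step is phosphorylation of glucose by hexokinases, and HIF-1α, encoded by Hif1a, induces many of its genes. Sterol synthesis builds cholesterol from acetyl-CoA through the mevalonate pathway under the control of SREBP2, the product of Srebf2.

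The promoters of 4 genes are shown because these genes carried the differences between classes described below: the hexokinase gene Hk2, the lactate dehydrogenase gene Ldha, and the sterol genes Idi1 and Cyp51. Each is the stretch of 250 bases before the start annotated by RefSeq in GRCm38.p6, written 5′ to 3′ on the strand of the gene. Capitals mark ACGTG, the core of the hypoxia response element, in Hk2 and Ldha, and CCAAT, the box bound by NF-Y, in Idi1 and Cyp51, each on either strand (CACGT and ATTGG).
Hk2 (chr6:82774455-82774704, minus strand): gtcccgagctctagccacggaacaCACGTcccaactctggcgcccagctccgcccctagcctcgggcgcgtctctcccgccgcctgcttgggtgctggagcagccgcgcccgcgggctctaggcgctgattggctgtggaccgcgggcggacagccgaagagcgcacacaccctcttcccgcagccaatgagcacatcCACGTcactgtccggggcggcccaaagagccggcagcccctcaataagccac
Ldha (chr7:46845554-46845803, plus strand): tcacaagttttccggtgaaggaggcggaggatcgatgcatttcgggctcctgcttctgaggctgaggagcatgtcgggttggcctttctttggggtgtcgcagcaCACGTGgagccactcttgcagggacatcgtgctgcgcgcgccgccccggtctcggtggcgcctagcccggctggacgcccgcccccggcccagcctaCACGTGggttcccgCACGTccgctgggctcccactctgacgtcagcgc
Idi1 (chr13:8885356-8885605, plus strand): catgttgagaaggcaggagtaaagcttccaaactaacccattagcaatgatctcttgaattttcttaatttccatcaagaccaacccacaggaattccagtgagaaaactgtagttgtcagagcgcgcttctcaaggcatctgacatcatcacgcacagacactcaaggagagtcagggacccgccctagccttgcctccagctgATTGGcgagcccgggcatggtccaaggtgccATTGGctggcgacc
Cyp51 (chr5:4104698-4104947, minus strand): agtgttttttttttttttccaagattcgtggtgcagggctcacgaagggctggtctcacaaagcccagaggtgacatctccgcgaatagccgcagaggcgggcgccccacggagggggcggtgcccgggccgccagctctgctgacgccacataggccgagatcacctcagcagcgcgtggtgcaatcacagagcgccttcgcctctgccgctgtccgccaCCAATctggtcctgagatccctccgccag
Hk2 held ACGTG beginning 226 and 52 bases before the start, and Ldha held it at 3 places, 2 of which are also the E box CACGTG. Idi1 held CCAAT beginning 45 and 14 bases before the start, and Cyp51 held it 29 bases before. Over windows of 300 bases, 250 before and 50 after the start, ACGTG on either strand occurred in 19.6% of all 32817 promoters. Among the glycolysis genes with an entry it occurred in 12 of 23 promoters, belonging to 11 of 16 genes. In the sterol genes with an entry it occurred in 2 of 8. CCAAT occurred in 37.4% of all promoters and in all 8 promoters of the 8 sterol genes with an entry. In the glycolysis genes it occurred in 11 of 23 promoters, belonging to 8 of 16 genes. A sterol regulatory element written TCACNCCAC occurred in 1.24% of all promoters, in Hmgcs1 among the sterol genes and in Pkm among the glycolysis genes. These are matches of letters and say nothing of binding. Sqle, Scd2, Fdps, Fdft1 and Slc2a3 had no entry in the promoter table.

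Hk2 separated intestinal ILC3 from ILC2, ILC1, NK and T cells of the kidney. Hk2, the inducible hexokinase that binds mitochondria, stood at 950 CPM in ILC3 of the intestine after UUO and at 1079 CPM after sham surgery. In the kidney it stood at 81.1 CPM in ILC2, 39.4 CPM in ILC1, 9.52 CPM in NK cells and 32.7 CPM in T cells of the knockout-labelled library, and at 51.3, 32.8, 6.97 and 49.9 CPM in those classes of the wild-type library. Both intestinal values lay far above these 8. Hk1, the hexokinase that most cells express, did not separate the same cells: it stood at 81.5 and 83.6 CPM in intestinal ILC3 and between 47.6 and 91.6 CPM in the 4 kidney classes. Of all UMIs of Hk2 and Hk1 together, Hk2 held 92.1% in ILC3 after UUO and 92.8% after sham surgery, against 8.33% to 49.2% in the 4 kidney classes. These shares compare UMIs and are not corrected for how well each transcript is captured.

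A UMI of Hk2 was found in 70.0% of ILC3 after UUO and 74.4% after sham surgery. After thinning every cell to 1000 UMIs the shares were 50.4% and 56.6%, with 174 and 69 shallower cells left out. In the kidney the thinned share was 0.538% of NK cells and 8.06% of ILC2 in the knockout-labelled library. Epithelial cells of the intestinal libraries, as a source of free RNA, had Hk2 at 144 CPM after UUO and 201 CPM after sham surgery. By the epithelial transcript Fabp2, such RNA would add 8.75 and 7.69 CPM of Hk2 to the ILC3 values. No such figure is given for free RNA of ILC3, which made up 71.0% and 78.9% of the kept cells. The part of free RNA in the Hk2 levels of intestinal cells was not tested.

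Other intestinal cells also had Hk2 above the values of the 4 kidney classes. The 168 and 116 intestinal cells that passed the ILC1 gate had Hk2 at 961 CPM after UUO and 933 CPM after sham surgery, but none of them fell in an ILC1 cluster when the cells were clustered without the 29 genes. The few intestinal ILC2, 31 and 14 cells, had 244 and 172 CPM, and the 69 and 37 intestinal T cells had 230 and 291 CPM. These values lie between those of intestinal ILC3 and those of the 4 kidney classes. Of the 50 and 34 UMIs of Hk2 in intestinal T cells, 36 and 25 were in cells with at least 3 UMIs of ILC3 markers. Intestinal T cells without such UMIs held 1 and 1, of only 3 and 1 UMIs of Hk2 and Hk1 together. These are too few to give a level of Hk2 there.

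Within the kidney libraries Hk2 was higher in T cells that held UMIs of ILC3 marker genes. Among kidney T cells, those with at least 3 UMIs of ILC3 markers had Hk2 at 123 CPM, against 22.4 CPM in T cells without such UMIs, in the knockout-labelled library. In the wild-type library the values were 77.9 CPM with and 25.8 CPM without ILC3 markers. The log2 ratios were 2.45 (95% interval 2.00 to 2.88) and 1.59 (1.15 to 2.04). The level in T cells with the markers remained well under that of intestinal ILC3. Of all genes compared, 10% were higher and 12.2% lower by the same rule in the knockout-labelled library, and 8.46% and 9.6% in the wild-type library. Slc2a1, the glucose transporter GLUT1, was lower in T cells with ILC3 markers in both libraries, at 31.6 against 62.3 CPM and at 16.3 against 39.3 CPM. CD4 T cells as a whole had Hk2 at 44.4 CPM in the knockout-labelled and 65.6 CPM in the wild-type library. Of UMIs of Hk2 and Hk1 together, Hk2 held 40.7% and 38.1% in CD4 and 22.0% and 20.4% in CD8 T cells. T cells with ILC3 markers were deeper, with medians of 2811 against 1889 UMIs and 2164 against 1656 UMIs. The parts of depth and of CD4 and CD8 makeup in the result were not tested.

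**Figure D1:**
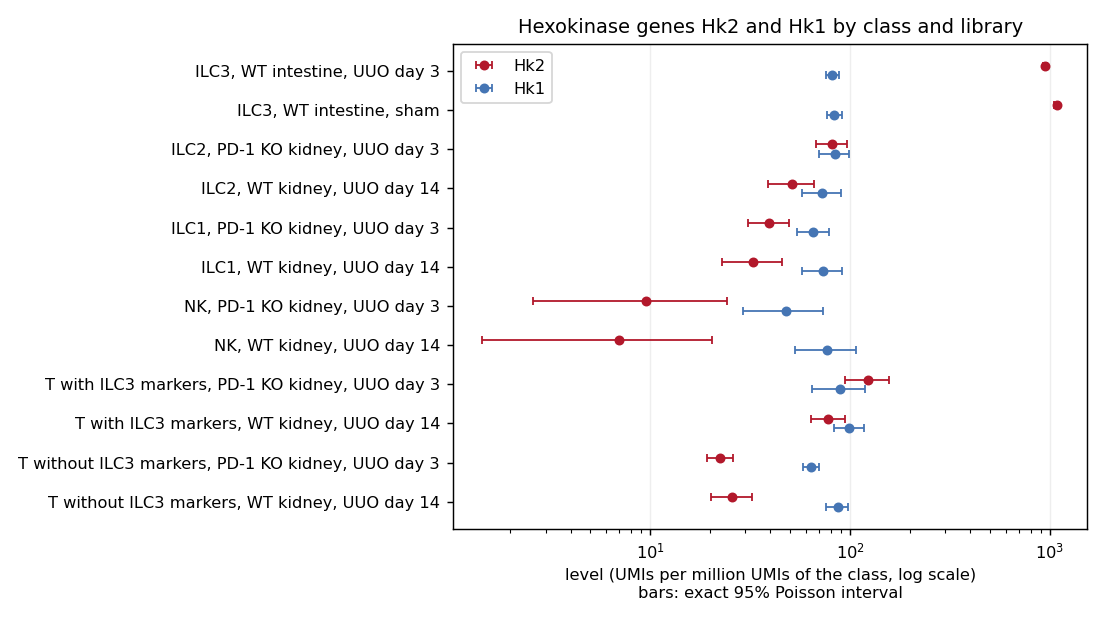
Levels of the hexokinase genes Hk2 (red) and Hk1 (blue) in CPM, on a log scale, by class and library; bars are exact 95% Poisson intervals. Hk2 lies near 1000 in both intestinal ILC3 groups and under 100 in kidney ILC2, ILC1 and NK cells, while Hk1 stays under 100 in each group shown.

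Beyond Hk2, intestinal ILC3 lay at least 1.5-fold above all 8 kidney values for Pfkl, Sqle and Idi1, and at least 1.5-fold below all 8 for Sc5d and Scd2. The 8 values are those of ILC2, ILC1, NK and T cells in each kidney library. By the same rule 9.91% of all genes lay above and 3.99% below, so 4 members above and 2 below of 28 are near what all genes showed. Organ, cell class, library and sorted population differ together in this comparison and cannot be told apart.

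Most other glycolysis members did not separate these cells in the way Hk2 did. Pfkl, the liver-type subunit of phosphofructokinase, stood at 52.1 and 49.0 CPM in ILC3 after UUO and sham surgery, against 18.6 to 29.8 CPM in the 4 kidney classes. Pfkl was no longer past the 1.5-fold limit when cells were thinned to 1000 UMIs or cycling cells were left out. Pfkp, the platelet-type subunit, stood at 135 and 142 CPM against 33.6 to 95.3 CPM, and Pkm, the pyruvate kinase gene, at 399 and 369 CPM against 177 to 351 CPM. Both were above all 8 kidney values by less than 1.5-fold. Gapdh, at 334 and 328 CPM, lay below the kidney range of 337 to 497 CPM, and Slc2a1, at 23.8 and 20.6 CPM, below 27.4 to 92.8 CPM, both by less than 1.5-fold. Hk1, Gpi1, Aldoa, Tpi1, Pgk1, Pgam1, Eno1, Ldha, Slc2a3, Slc16a3 and Hif1a overlapped the kidney range. The summed level of the 17 glycolysis genes was 3279.5 and 3324 CPM in intestinal ILC3, of which Hk2 made up 950 and 1079 CPM. It was 3596 and 3116 CPM in kidney ILC2 and 2035 to 2669 CPM in kidney ILC1, NK and T cells.

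The sterol genes differed in both directions. Idi1, which isomerizes isopentenyl diphosphate, stood at 17.5 and 18.4 CPM in intestinal ILC3 (143 and 112 UMIs) and at 0 to 4.42 CPM in the 4 kidney classes, where no class held more than 6 UMIs. Sqle, the squalene epoxidase and a rate-limiting step, stood at 34.8 and 41.0 CPM against 0 to 16.2 CPM, and it was no longer past the limit when cells were thinned. Hmgcs1, the synthase that makes HMG-CoA, stood at 42.4 and 41.9 CPM against 13.9 to 35.7 CPM, and Srebf2 at 179 and 201 CPM against 37.2 to 127 CPM, each above by less than 1.5-fold. Sc5d, a late desaturase of cholesterol synthesis, was lower, at 27.8 and 28.3 CPM against 57.2 to 97.9 CPM. Scd2, which desaturates fatty acids, was lower as well, at 12.3 and 8.06 CPM against 28.8 to 286 CPM. Fasn, the fatty acid synthase, stood at 19.2 and 19.1 CPM against 19.7 to 35.7 CPM, below by less than 1.5-fold. Fdps, the farnesyl diphosphate synthase, had no more than 0.822 CPM in intestinal ILC3 or in any of these kidney classes. Fdft1, Lss and Insig1 overlapped the range of the 4 kidney classes, as did Cyp51. The summed level of the 12 genes was 501 and 524 CPM in intestinal ILC3, within the range of 316 to 628 CPM of the 4 kidney classes.

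**Figure D2:**
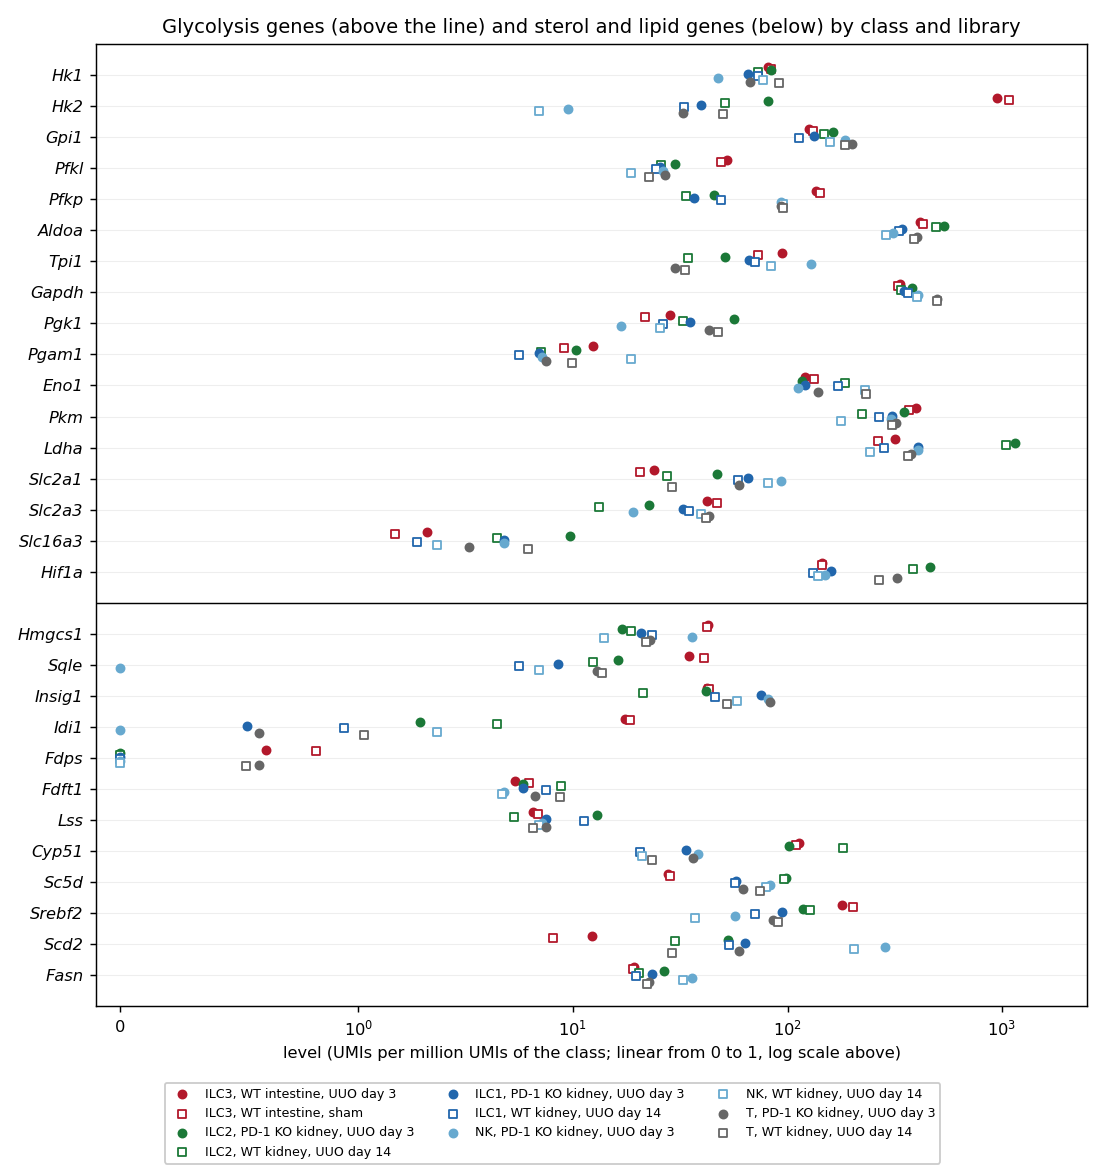
Level of each glycolysis gene (above the line) and each sterol and lipid gene (below it) in intestinal ILC3 and in kidney ILC2, ILC1, NK and T cells, in CPM; the axis is linear from 0 to 1 and logarithmic above. Intestinal ILC3 (red) stand apart to the right for Hk2, at 950 and 1079, and for Idi1, at 17.5 and 18.4, and to the left for Scd2, at 12.3 and 8.06.

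The wider gene lists were read against the same shares of all genes, 9.91% above and 3.99% below. Of 21 further glycolysis genes with enough UMIs, 3 lay above all 8 kidney values by 1.5-fold and 1 below. Pfkfb3, the enzyme that makes the activator of phosphofructokinase, stood at 168 and 188 CPM in intestinal ILC3 against 18.1 to 46.7 CPM in the kidney. G6pdx, which opens the pentose phosphate pathway, stood at 113 and 88.3 CPM against 27.9 to 44.2 CPM. Slc16a1, a lactate transporter, was the gene below, at 3.06 and 3.45 CPM against 9.72 to 52.8 CPM. Of 28 further sterol and fatty acid genes, only Msmo1, a demethylation enzyme of cholesterol synthesis, lay above, at 57.9 and 53.1 CPM against 6.97 to 20.3 CPM. Of 17 HIF target genes only Egln3, a prolyl hydroxylase, lay above, at 255 and 282 CPM against 33.3 to 113 CPM. The list called HIF targets here also holds regulators of HIF, among them Vhl.

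After ureter obstruction most of the 29 genes stood close to their sham levels in intestinal ILC3. Of 25 members with enough UMIs, only Scd2 differed, at 12.3 CPM after UUO and 8.06 CPM after sham surgery, a log2 ratio of 0.61 (0.10 to 1.13) from 100 and 49 UMIs. Of all 8925 genes compared, 3.17% were higher after UUO and 4.43% were apart in either direction. Hk2 stood at 950 CPM after UUO and 1079 CPM after sham surgery, a log2 ratio of -0.18 (-0.23 to -0.14), which is clear of 0 and short of 1.5-fold. The median log2 ratio was 0.01 for 16 glycolysis genes and -0.02 for 9 sterol genes, beside 0.00 for all genes. The summed levels differed by -0.02 (-0.05 to 0.01) and -0.07 (-0.13 to 0.00) on the log2 scale. No further glycolysis, sterol synthesis, HIF target or sterol export gene passed the rule. Scd2 did not pass it when cells were thinned. The libraries shared 158 barcodes, carried by 15 and 21 of the ILC3, and Scd2 passed without those cells as well. Intestinal epithelial markers were counted more often in ILC3 after UUO, 4 of 9 being higher by the rule, and their part in the Scd2 value was not tested.

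Among intestinal ILC3, the cells with Ccr6, a marker of the lymphoid-tissue-inducer type, were set against cells that lacked Ccr6 and had at least 3 UMIs of type 1 markers. The groups held 831 and 350 cells after UUO and 541 and 246 cells after sham surgery, with the deeper cells in the type 1 group. Cyp51, the lanosterol demethylase, was higher with Ccr6 in both libraries, at 157 against 51.2 CPM after UUO and 156 against 62.4 CPM after sham surgery. The log2 ratios were 1.61 (1.20 to 2.05) and 1.32 (0.85 to 1.83). Pfkp and Eno1, the enolase gene, were lower with Ccr6 in both. Eno1 stood at 107 against 195 CPM after UUO and at 99.3 against 208 CPM after sham surgery. Hk2 was high on both sides, at 890 against 930 CPM after UUO and at 959 against 1068 CPM after sham surgery. Srebf2 was higher with Ccr6 after sham surgery, at 229 against 118 CPM. By the rule 10.3% of all genes were higher and 9.85% lower with Ccr6 after UUO, and 11.9% and 9.92% after sham surgery. Of 13 HIF targets after UUO 4 were higher and 1 lower with Ccr6, and of 9 after sham surgery 3 were higher and 1 lower. Vegfa, the angiogenic growth factor, was higher with Ccr6, at 936 against 101 CPM after UUO and at 1031 against 187 CPM after sham surgery. Ero1l, an oxidase of the endoplasmic reticulum, was lower, at 133 against 238 CPM and at 116 against 227 CPM. Of the further sterol and fatty acid genes none was higher and 3 were lower with Ccr6 in each library, of 11 after UUO and 7 after sham surgery. Among them Stard4, a sterol carrier, stood at 59.6 against 233 CPM and at 83.3 against 235 CPM, in the direction opposite to Cyp51.

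In the kidney, ILC2 stood apart for Ldha and Cyp51. Ldha, which makes lactate from pyruvate, stood at 1149 CPM in ILC2 and 377 CPM in T cells of the knockout-labelled library, and at 1046 CPM in ILC2 and 363 CPM in T cells of the wild-type library. The log2 ratios were 1.61 (1.52 to 1.69) and 1.52 (1.42 to 1.63). Cyp51 stood at 101 CPM in ILC2 and 36.3 CPM in T cells of the knockout-labelled library, and at 181 and 23.3 CPM in the wild-type library, with log2 ratios of 1.48 (1.19 to 1.76) and 2.96 (2.63 to 3.28). ILC2 had the highest level of both genes among the gated classes in all 4 libraries. In the intestine ILC2 had Ldha at 629 CPM after UUO and 719 CPM after sham surgery, and Cyp51 at 376 and 834 CPM, from only 31 and 14 cells. The next class there had Ldha at 318 and 291 CPM and Cyp51 at 170 and 120 CPM.

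Ldha and Cyp51 were the members higher in ILC2 than in T cells in both kidney libraries, and Pfkp, Slc2a3 and Insig1 were lower in both. Over all genes compared, 7.08% were higher and 15.1% lower in both libraries. Pfkp stood at 45.4 CPM in ILC2 and 93.1 CPM in T cells of the knockout-labelled library, and at 33.6 and 94.9 CPM in the wild-type library. Slc2a3, the glucose transporter GLUT3, stood at 22.7 and 43.1 CPM, and at 13.3 and 41.9 CPM. Insig1, which holds SREBP in the endoplasmic reticulum, stood at 41.5 and 82.5 CPM, and at 21.2 and 52.3 CPM. In the knockout-labelled library Hk2, Tpi1 and Sc5d were higher in ILC2 as well, so that 8 of 23 members differed there, against 5 of 22 in the wild-type library. Of all genes, 11.1% were higher and 22.9% lower in the knockout-labelled library, and 8.58% and 25.1% in the wild-type library.

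The median gene was itself lower in ILC2 than in T cells, by -0.18 in the knockout-labelled and -0.26 in the wild-type library on the log2 scale. Scaled to that median, 9 members differed in the wild-type library, with Aldoa, Hif1a, Sc5d and Srebf2 added on the higher side. The median log2 ratio was 0.16 and 0.28 for glycolysis and sterol members in the knockout-labelled library, and -0.33 and 0.06 in the wild-type library. The summed glycolysis level was 3596 CPM in ILC2 and 2659 CPM in T cells of the knockout-labelled kidney, and 3116 and 2669 CPM in the wild-type kidney.

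Genes of the HIF target list differed in both directions between ILC2 and T cells. Of 14 HIF targets in the knockout-labelled library 6 were higher and 4 lower in ILC2 than in T cells, and of 13 in the wild-type library 3 were higher and 2 lower. Over all genes the shares were those given above, 11.1% higher and 22.9% lower in the knockout-labelled and 8.58% and 25.1% in the wild-type library. Ero1l stood at 381 and 66.4 CPM in the knockout-labelled and at 340 and 138 CPM in the wild-type library. Vhl, a regulator on the list that marks HIF-1α for destruction, was lower in ILC2, at 14.3 and 44.9 CPM and at 16.8 and 45.3 CPM. Among the wider lipid genes Elovl5, which lengthens polyunsaturated fatty acids, stood at 1248 and 258 CPM and at 1060 and 178 CPM. The export genes Abca1, a cholesterol transporter, and Soat1, which esterifies cholesterol, were higher in ILC2 in both libraries. Slc16a1 was lower in ILC2, at 11.7 and 52.8 CPM and at 9.72 and 34.1 CPM.

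**Figure D3:**
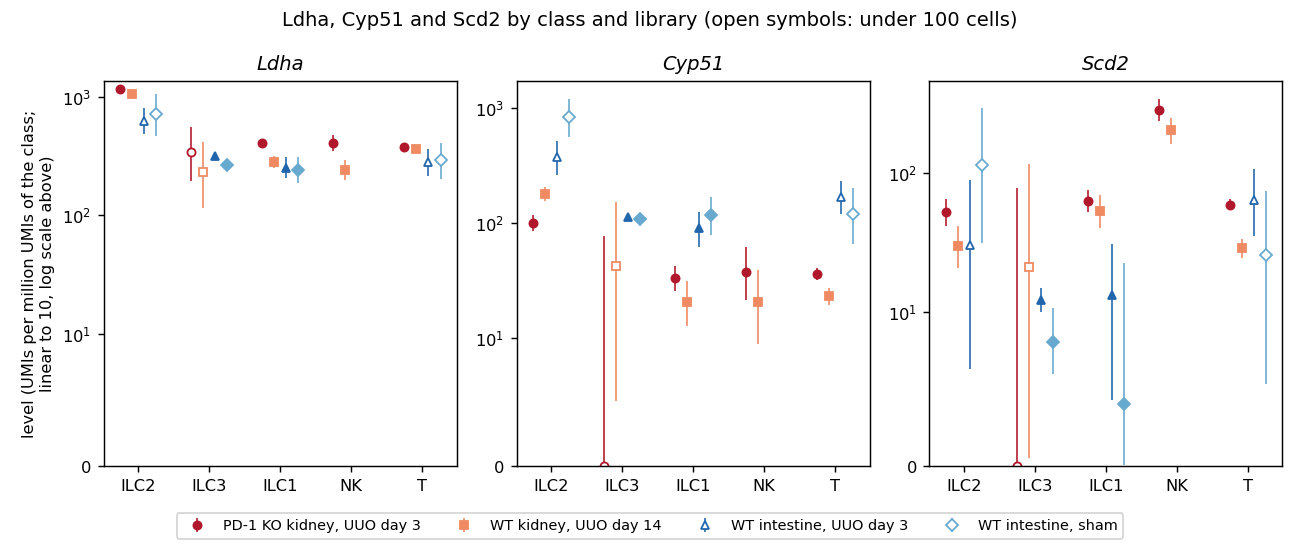
Levels of Ldha, Cyp51 and Scd2 by class and library in CPM, linear to 10 and logarithmic above; bars are exact 95% Poisson intervals and open symbols mark classes under 100 cells. Ldha and Cyp51 are highest in ILC2 in all 4 libraries, and Scd2 reaches 286 and 204 in kidney NK cells.

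Kidney NK cells had higher Scd2, Tpi1 and Slc2a1 than T cells in both libraries. Scd2 stood at 286 CPM in NK cells and 59.5 CPM in T cells of the knockout-labelled library, and at 204 and 28.8 CPM in the wild-type library. The log2 ratios were 2.26 (1.96 to 2.55) and 2.83 (2.44 to 3.21), and NK cells had the highest level of Scd2 in both kidney libraries. Tpi1, the triose phosphate isomerase, stood at 128 and 29.9 CPM, and at 83.6 and 33.2 CPM. In the wild-type library its level in NK cells (58.6 to 116) overlapped that in ILC1, 70.3 CPM (55.3 to 88.2). Slc2a1 stood at 92.8 and 59.2 CPM, and at 81.3 and 28.99 CPM. Hk2 was lower in NK cells, where it rested on 4 and 3 UMIs, with log2 ratios of -1.78 (-3.67 to -0.41) and -2.84 (-5.12 to -1.28). Pgk1, the phosphoglycerate kinase, and Hif1a were lower as well in both libraries. In the wild-type library alone Ldha, Pkm and Srebf2 were also lower in NK cells. They stood at 242 and 363 CPM, 177 and 307 CPM, and 37.2 and 90.2 CPM. In the knockout-labelled library alone Slc2a3 was also lower, at 19.0 and 43.1 CPM, from 8 UMIs in NK cells. Over all genes 4.18% were higher and 5.91% lower in both libraries, and 7.62% and 9.88% in the knockout-labelled and 8.56% and 13.8% in the wild-type library alone. Of 14 HIF targets 4 were higher and 3 lower in NK cells of the knockout-labelled library, and of 13 in the wild-type library 3 were higher and 1 lower. Vegfa stood at 533 CPM in NK cells and 34.1 CPM in T cells of the knockout-labelled library and at 618 and 21.0 CPM in the wild-type library.

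ILC1 differed less from T cells. Tpi1 was higher in ILC1 in both libraries, at 66.0 and 29.9 CPM and at 70.3 and 33.2 CPM. Gpi1, the glucose phosphate isomerase, Pfkp and Hif1a were lower in both. Hif1a stood at 160 CPM in ILC1 and 323 CPM in T cells of the knockout-labelled library, and at 131 and 267 CPM in the wild-type library. Over all genes 4.79% were higher and 5.37% lower in both libraries. Vegfa stood at 708 CPM in ILC1 and 34.1 CPM in T cells of the knockout-labelled library, and at 747 and 21.0 CPM in the wild-type library, above the NK cell values. Of the HIF targets 4 of 14 were higher and 1 lower in the knockout-labelled library, and 3 of 13 higher and 2 lower in the wild-type library. In the wild-type library alone Slc2a1 and Scd2 were also higher and Hk2 and Pgk1 lower, where 8.21% of genes were higher and 11.2% lower, beside 8.39% and 10.5% in the knockout-labelled library.

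Set directly against NK cells, ILC2 had higher Aldoa, Ldha, Hif1a, Cyp51 and Srebf2 and lower Scd2 in both libraries, beside 14.2% of all genes higher and 13.4% lower in both. In the knockout-labelled library alone Hk1 and Hk2 were also higher and Pfkp, Tpi1 and Slc2a1 lower, where 17.4% of genes were higher and 17.9% lower, beside 17.4% and 20% in the wild-type library. Hif1a stood at 462 CPM in ILC2 and 150 CPM in NK cells of the knockout-labelled library, and at 385 and 139 CPM in the wild-type library. Aldoa, the aldolase of muscle and most other tissues, stood at 536 and 309 CPM, and at 491 and 288 CPM. Srebf2 stood at 119 and 57.1 CPM, and at 127 and 37.2 CPM. ILC1 had lower Scd2 than NK cells in both libraries, at 63.4 and 286 CPM and at 53.5 and 204 CPM, with log2 ratios of -2.17 (-2.55 to -1.79) and -1.94 (-2.44 to -1.44). Of all genes 4.38% were higher and 2.39% lower in ILC1 in both libraries, and 8.89% and 6.55% in the knockout-labelled and 7.89% and 4.63% in the wild-type library alone. All classes of a library went through the same preparation. Cd3e stood at 59.0, 64.4 and 64.3 CPM in ILC2, ILC1 and NK cells of the knockout-labelled library. In the wild-type library the values were 21.2, 38.4 and 27.9 CPM. In T cells Cd3e stood at 1100 and 1301 CPM. Cells with 2 or more T cell UMIs were left out of the ILC classes. The low Cd3e values there were thus set by the gates and do not measure free T cell RNA.

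**Figure D4:**
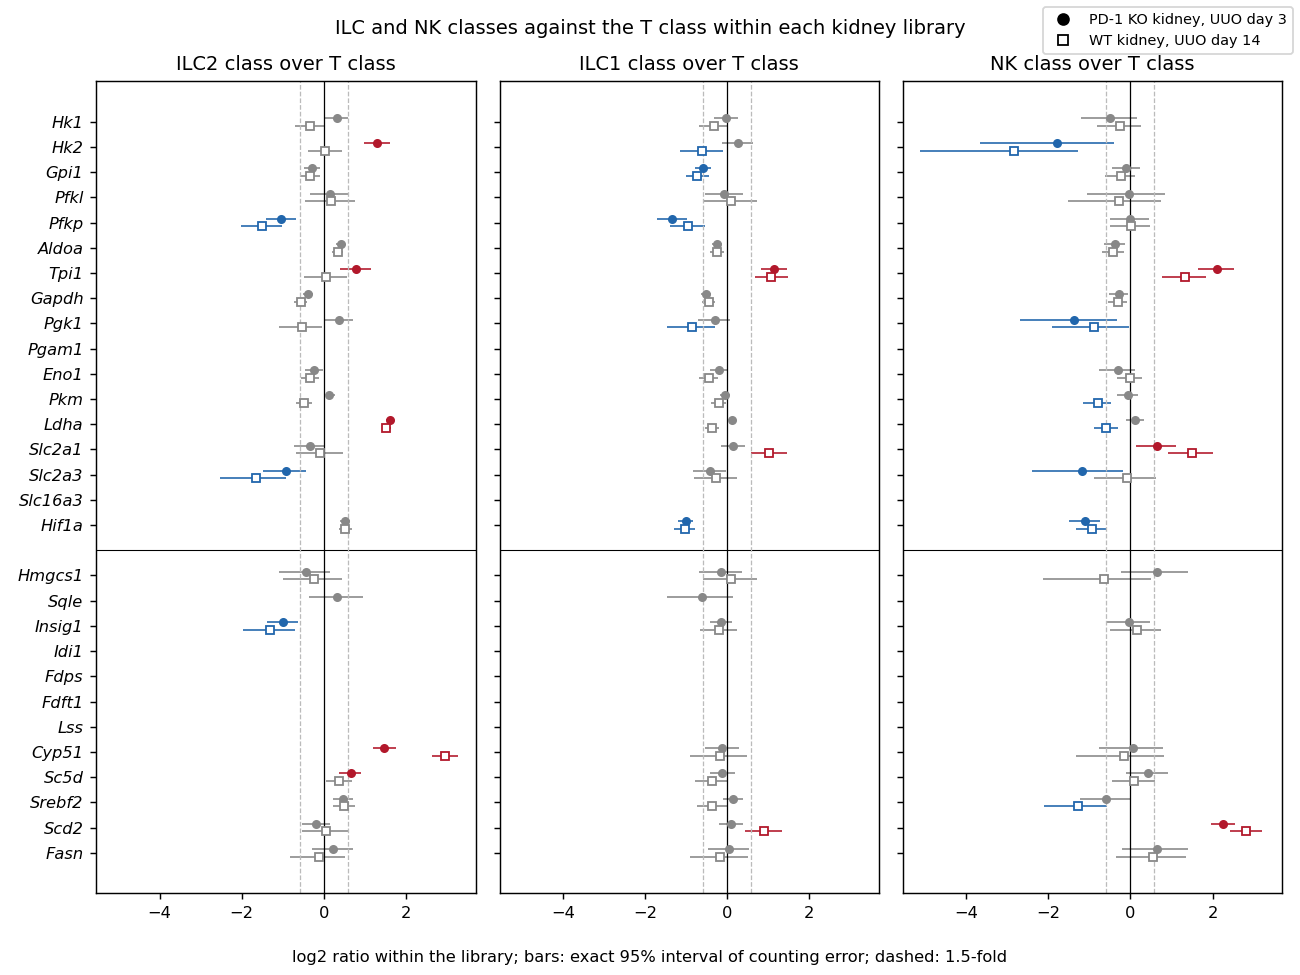
Log2 ratio of each gene in ILC2, ILC1 and NK cells over T cells within each kidney library; bars are exact 95% intervals of counting error, and red and blue mark genes at least 1.5-fold higher and lower with an interval clear of 0. Ldha and Cyp51 lie to the right in ILC2 in both libraries, at 1.61 and 1.52 and at 1.48 and 2.96, and Scd2 in NK cells, at 2.26 and 2.83.

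Between the kidney libraries, Eno1 was lower in every class of the knockout-labelled kidney at day 3 than in the wild-type kidney at day 14. It stood at 117 and 186 CPM in ILC2, 120 and 172 CPM in ILC1, 112 and 230 CPM in NK cells and 138 and 233 CPM in T cells. The log2 ratios were -0.66 (-0.96 to -0.37), -0.51 (-0.80 to -0.22), -1.04 (-1.57 to -0.53) and -0.76 (-0.87 to -0.64). In ILC1 the difference was short of 1.5-fold. Near copies of Eno1, Gapdh, Pgk1 and Ldha exist in the genome, and the sources used here do not state how reads shared with them were counted.

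In ILC2 of the knockout-labelled kidney Hk2, Pgk1, Pkm, Slc2a1 and Scd2 were higher and Eno1 and Cyp51 lower, which is 7 of the 17 members with enough UMIs. Of all genes compared in ILC2, 4.41% were higher and 3.16% lower. Hk2 stood at 81.1 CPM in the knockout-labelled and 51.3 CPM in the wild-type kidney, Pkm at 351 and 222 CPM, and Slc2a1 at 46.7 and 27.4 CPM, with log2 ratios of 0.66 (0.20 to 1.14), 0.66 (0.44 to 0.88) and 0.77 (0.14 to 1.43). Cyp51 stood at 101 and 181 CPM, a log2 ratio of -0.84 (-1.15 to -0.53). The median log2 ratio was 0.26 for 13 glycolysis genes and -0.04 for 4 sterol genes, beside 0.00 for all genes. Insig1, at 41.5 and 21.2 CPM, had too few UMIs to be compared by the rule.

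The direction of these 7 ratios stayed under the settings that follow, but fewer passed the rule. Cycling cells made up 4.96% of ILC2 in the knockout-labelled and 2.59% in the wild-type kidney, and without them 2 members, Eno1 and Cyp51, passed. Without the 5% of cells with most UMIs 3 passed, Hk2, Eno1 and Cyp51, and with cells thinned to 1000 UMIs only Cyp51 did. Fewer members had enough UMIs under these settings, 12, 12 and 10. In cycling ILC2 Gapdh and Pkm were higher than in ILC2 without a cycling UMI. Pkm stood at 632 and 307 CPM in the knockout-labelled and at 455 and 210 CPM in the wild-type library, where 10.6% of genes were higher and 10.9% lower in the knockout-labelled and 8.46% and 9.59% in the wild-type library. These groups held 26 and 12 cycling cells, with median depths of 5944.5 and 5449 UMIs against 2672 and 2319 UMIs in the others. ILC2 with a UMI of the effector cytokines Il5 or Il13, 93 and 43 cells, had Pkm at 471 CPM against 306 CPM without in the knockout-labelled library, where 2.42% of genes were higher and 2.64% lower. In the wild-type library Hif1a stood at 631 CPM with and 353 CPM without these cytokines, where 4.2% were higher and 3.82% lower.

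NK cells and ILC1 had fewer members to compare. Of 8 members in NK cells Pkm and Ldha were higher and Eno1 lower, beside 3.26% and 3.32% of all genes higher and lower. Ldha stood at 407 CPM in NK cells of the knockout-labelled and 242 CPM of the wild-type kidney, and Pkm at 305 and 177 CPM. In ILC1 only Insig1 of 16 members differed, at 75.1 and 46.0 CPM, a log2 ratio of 0.71 (0.23 to 1.21), beside 3.82% of genes higher and 4.37% lower. Insig1 in ILC1 no longer passed when cells were thinned or cycling cells were left out. Ldha in ILC1 stood at 406 and 281 CPM, short of 1.5-fold.

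In T cells 6 of 26 members differed, with Slc2a1, Insig1, Cyp51 and Scd2 higher and Hk2 and Eno1 lower in the knockout-labelled kidney, beside 5.81% of all genes higher and 9.82% lower. Slc2a1 stood at 59.2 CPM in the knockout-labelled and 28.99 CPM in the wild-type kidney, and Scd2 at 59.5 and 28.8 CPM, with log2 ratios of 1.03 (0.77 to 1.29) and 1.05 (0.79 to 1.31). Hk2 stood at 32.7 and 49.9 CPM, a log2 ratio of -0.61 (-0.85 to -0.36). The makeup of the T class differed between the libraries. CD8 T cells numbered 2293 in the knockout-labelled and 573 in the wild-type kidney, CD4 T cells 340 and 557, and T cells with ILC3 markers 160 and 599. Within CD8 T cells 3 members differed, Pfkl and Cyp51 higher and Eno1 lower, beside 4.77% of genes higher and 4.98% lower. Within CD4 T cells Hk1 and Eno1 were lower, beside 3.89% and 6.49%. Cycling T cells numbered 83 in the knockout-labelled and 57 in the wild-type library. They had Gapdh at 765 CPM against 480.2 CPM in T cells not cycling in the knockout-labelled library, and at 768 against 488 CPM in the wild-type library. Over all genes 6.92% were higher and 5.01% lower in the knockout-labelled library, and 4.98% and 3.53% in the wild-type library. In T cells without ILC3 markers Hk2 stood at 22.4 and 25.8 CPM and did not pass the rule, while Eno1, Slc2a1 and Scd2 did.

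The summed glycolysis level was 0.21 higher on the log2 scale in ILC2 of the knockout-labelled kidney (0.15 to 0.27), 0.11 in ILC1 (0.04 to 0.19), 0.16 in NK cells (0.02 to 0.29) and -0.01 in T cells (-0.04 to 0.02). The summed sterol level differed by -0.10 in ILC2 (-0.25 to 0.06), 0.30 in ILC1 (0.12 to 0.50), 0.43 in NK cells (0.16 to 0.70) and 0.22 in T cells (0.14 to 0.30). None of these sums reached 1.5-fold. Of the wider lists, no further glycolysis gene differed in ILC2, and in T cells the HIF targets Egln3, Ddit4 and Ero1l were lower in the knockout-labelled kidney. Egln3 stood at 35.9 CPM in the knockout-labelled and 83.4 CPM in the wild-type kidney, and Ero1l at 66.4 and 138 CPM. Within CD4 T cells Egln3, Arnt, Ddit4 and Ero1l of that list were lower and Bhlhe40 was higher. Ddit4 and Arnt were lower in ILC1 and Bnip3l in ILC2, beside the shares of all genes given above. Ero1l stood at 229 CPM with and 45.8 CPM without ILC3 markers in T cells of the knockout-labelled library. Egln3 stood there at 98.8 and 27.2 CPM. T cells with these markers were fewer in the knockout-labelled kidney, and the part of this makeup was not tested.

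**Figure D5:**
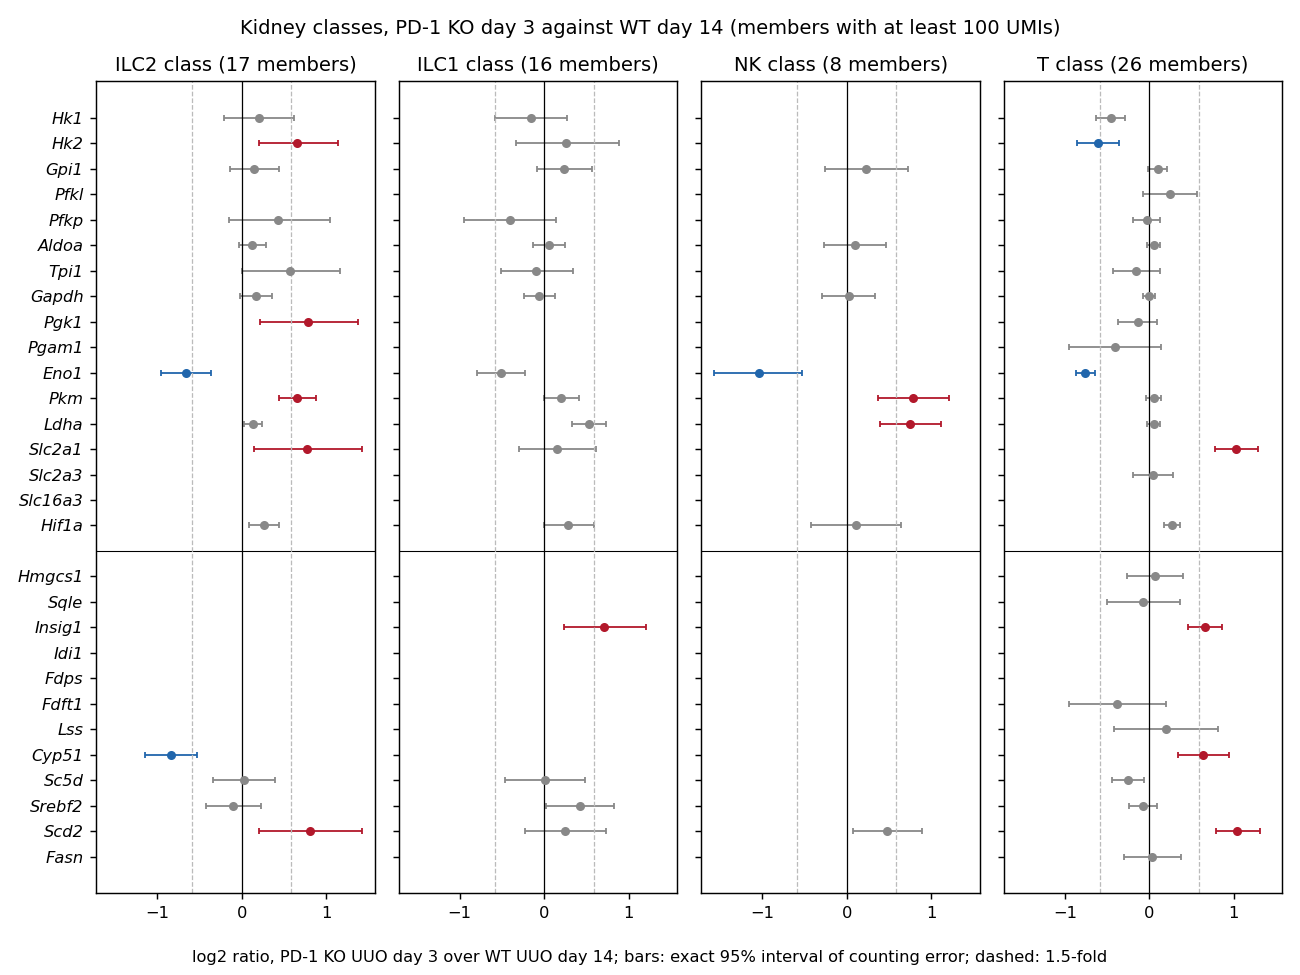
Log2 ratio of each gene in the knockout-labelled kidney at day 3 over the wild-type kidney at day 14 in ILC2, ILC1, NK and T cells, for genes with at least 100 UMIs in both together; bars are exact 95% intervals of counting error, and red and blue mark genes at least 1.5-fold higher and lower. Eno1 lies to the left in all 4 classes, between -0.51 and -1.04, while Hk2 and Cyp51 lie on opposite sides in ILC2 and T cells.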

How the data were processed

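UMI counts per gene and cell were deposited by the authors as 1 matrix per library. Tools named in the submitters' processing notes are Seurat, UMI-tools and CASAVA 1.8, with mm10 as the genome build; the sources used here name no aligner, annotation or rule for calling cells. The matrix of the wild-type kidney came without its own gene list, and its genes were named from the lists of the other 3 libraries, which are identical. Over genes its totals correlated with the knockout-labelled kidney at r = 0.992, and at 0.21 when the names were shifted by 1.

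Cells with at least 500 UMIs, 250 genes and at most 20% mitochondrial UMIs were kept. No doublet caller was run; cells with 2 or more T cell UMIs, or at least 5 UMIs of another cell type's markers, were left out of the ILC classes, and the 5% of cells with most UMIs were left out as an alternative. T cells needed 3 UMIs of Cd3d, Cd3e, Cd3g and Trac, ILCs at most 1, ILC2 5 and ILC3 3 UMIs of their markers, and NK cells and ILC1 5 shared and 2 own UMIs. These gates were set after the data were seen, as were the subsets within classes. The members and lists were chosen with earlier results of these data known. Of the cells at the gates' limits, 369 and 250 were T cells of the knockout-labelled and wild-type kidney.

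Counts were summed per class and library. Intervals are exact Poisson for levels, Clopper-Pearson for shares and exact conditional binomial for ratios, at 95%, and cover counting error only. Classes under 100 cells were described, and compared only where the number of cells is given. All members are described. Those past the 1.5-fold rule were singled out, with up to 4 genes of each further list by the size of their ratio. For ILC1 against NK cells not all of those past the rule are named, and subsets within classes may lack some as well. The comparison of counts was run on simulated data drawn with counting error only. That run does not cover variation between libraries, mice or cells. Python 3.11.15, numpy 2.4.6, scipy 1.17.1, pandas 2.3.3 and leidenalg 0.10.2 were used. Some results, among them those of a small kidney class, are not reported here.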

Additional observations from a re-analysis of the deposited data

Results flagged for a closer look

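For 2 genes the kidney classes moved in opposite directions between the knockout-labelled kidney at day 3 and the wild-type kidney at day 14, both past the 1.5-fold rule. Cyp51 was higher in T cells (log2 ratio 0.64) and lower in ILC2 (-0.84), which are 1.48 apart on the log2 scale. Hk2 was higher in ILC2 (0.66) and lower in T cells (-0.61), which are 1.27 apart. With 1 library per group, the difference was not tested in either case. For Hk2, T cells with ILC3 markers numbered 160 in the knockout-labelled and 599 in the wild-type kidney, and Hk2 in T cells without those markers stood at 22.4 CPM in the knockout-labelled and 25.8 CPM in the wild-type kidney.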

How the results depend on the processing

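No ratio reversed under any alternative run. Hk2 and Idi1 were above and Sc5d and Scd2 below all kidney values under each alternative run, while the number of members above ranged from 3 to 6. Counts of members past the rule moved as follows, and where no value shows why, the cause was not tested. For ILC1 between the kidney libraries the count of 1 became 2 with gates raised by 1 UMI, 0 with cells thinned to 1000 UMIs, 3 with the mean of per-cell CPM, 4 at a lower fold limit and 0 without cycling cells. For intestinal ILC3 after UUO and sham surgery the count of 1 became 0 when thinned, 2 without the 5% of cells with most UMIs and 3 at the lower fold limit. For NK cells between the kidney libraries 3 became 1 when thinned. For ILC2 7 became 1 when thinned, 3 without the 5% of deepest cells and 2 without cycling cells, with fewer members measured each time. For T cells 6 became 3 in CD8 T cells, 2 in CD4 T cells and 3 in T cells without ILC3 markers, alternatives chosen after seeing the data. For ILC2 against T cells 8 became 14 in the knockout-labelled library at the lower fold limit, and in the wild-type library 5 became 8 when thinned, 9 with scaling to the median gene ratio and 14 at a lower fold limit. For NK cells against T cells of the wild-type library 9 became 3 when thinned. ILC2 against NK cells had 11 in the knockout-labelled library, which became 3 when thinned and 7 without cycling cells, and 6 in the wild-type library, which became 3 when thinned and 12 with a minimum of 20 UMIs. Thinning removes UMIs, so fewer members reach 100. For ILC2 against T cells of the wild-type library the count rose when thinned, and the cause of that rise was not tested. No paired analysis was possible because each group is 1 library.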
